A study of Mus musculus with 7 samples.

Results

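Uncoupling proteins and regulators of thermogenesis were followed through 8 genes: the uncoupling protein genes Ucp1, Ucp2 and Ucp3, the coactivator genes Ppargc1a and Ppargc1b, and Prdm16, Cidea and Dio2, taken as the rows of the count table that carry these gene names. The table holds 57010 genes. The 8 were chosen with this comparison's results in view, so their own differences are given as a description with no p-value. RNA came from Tim4+ resident macrophages (long-lived phagocytes of the body cavities) sorted from the peritoneal fluid of C57BL/6 mice, in steady state (n = 3 libraries) or 12 days after injection of m204 MTO (n = 4 libraries). The labels do not spell out MTO. Peritoneal colorectal cancer is named in the series title. No genotype, sex, age or sham injection is named in the labels for either group, nor how many mice went into a library. The sort gated live cells on CD11b, MHC class II and Tim4 staining, and the protocol gives a purity above 97%.

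Uncoupling proteins are carriers of the inner mitochondrial membrane. UCP1, the protein that defines brown fat, lets protons flow back into the matrix without ATP synthesis, so that respiration yields heat. UCP2 is common in macrophages and other immune cells and UCP3 in skeletal muscle, and neither is regarded as a heat producer of the same kind. In brown adipocytes Ucp1 is switched on through beta-adrenergic receptors and cyclic AMP, through the coactivator PGC-1alpha (Ppargc1a) and its relative PGC-1beta (Ppargc1b), through the brown fat regulator PRDM16 and through thyroid hormone that the enzyme DIO2 activates. CIDEA coats lipid droplets and is a standard brown fat marker. The question put to the data was whether Ucp1 differed on its own at day 12 or together with other genes of that programme.

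In these cells Ucp1 was the member with the highest fold at day 12, and it did not come with the full set. Ucp1 (log2 fold change 5.75), Ppargc1b (1.81) and Prdm16 (1.04) were higher at day 12, Ppargc1a was counted in 31 reads in steady state and 2 at day 12, Ucp2 overlapped between the groups, and Cidea, Dio2 and Ucp3 were at or under the floor of detection. Of the 4 members with enough reads to be tested (Ucp1, Ucp2, Ppargc1b and Prdm16), 3 passed edgeR's threshold of an adjusted p of 0.05, all higher at day 12, in a table where 20.3% of the 15981 tested genes passed in either direction and 10.1% passed as higher. The members were chosen on this contrast, so nothing is read from that share.

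The 250 bases before the RefSeq start site are printed for 4 members, Ucp1 and Prdm16 because they were higher at day 12, Ucp2 because it is the abundant uncoupling protein gene of these cells, and Dio2 because it carries the complete cyclic AMP response element while hardly a read was seen. They are from RefSeq's table for GRCm38.p6, at chr8:83290098-83290347 (plus strand, Ucp1), chr7:100493108-100493357 (plus strand, Ucp2), chr4:154636874-154637123 (minus strand, Prdm16) and chr12:90739039-90739288 (minus strand, Dio2). They read 5′ to 3′ towards the gene, and capitals mark matches on either strand to AGGTCA (nuclear receptor half-site), TGACG (CREB half-site), TGACGTCA (full cyclic AMP response element, which holds TGACG on both strands), GGGCGG (GC box) or TATAAA (the TATA box).
Ucp1: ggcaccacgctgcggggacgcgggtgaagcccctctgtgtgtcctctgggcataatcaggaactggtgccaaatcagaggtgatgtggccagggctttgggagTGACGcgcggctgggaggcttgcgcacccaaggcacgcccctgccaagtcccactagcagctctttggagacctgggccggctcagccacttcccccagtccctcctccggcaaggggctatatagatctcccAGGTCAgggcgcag
Ucp2: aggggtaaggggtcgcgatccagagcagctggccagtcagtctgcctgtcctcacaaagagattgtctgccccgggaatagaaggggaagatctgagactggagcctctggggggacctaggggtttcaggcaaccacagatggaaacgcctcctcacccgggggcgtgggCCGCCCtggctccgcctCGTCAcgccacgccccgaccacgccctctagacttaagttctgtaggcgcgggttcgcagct
Prdm16: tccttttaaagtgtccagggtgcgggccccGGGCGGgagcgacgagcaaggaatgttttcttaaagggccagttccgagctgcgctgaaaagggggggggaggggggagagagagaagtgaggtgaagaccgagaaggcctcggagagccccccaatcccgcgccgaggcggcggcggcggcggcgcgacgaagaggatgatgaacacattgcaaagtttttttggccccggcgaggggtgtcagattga
Dio2: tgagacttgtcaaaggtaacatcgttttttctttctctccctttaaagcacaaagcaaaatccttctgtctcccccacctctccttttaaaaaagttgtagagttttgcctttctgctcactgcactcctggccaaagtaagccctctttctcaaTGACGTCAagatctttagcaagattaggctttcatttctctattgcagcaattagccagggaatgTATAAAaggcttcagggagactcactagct

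The Ucp1 window held a CREB half-site with its first base 147 bases before the start and a nuclear receptor half-site at 14 bases. In Ucp2 a GC box lay 79 and a CREB half-site 62 bases before the start, both read on the other strand, and in Prdm16 a single GC box lay 220 bases before it. The Dio2 window held the full cyclic AMP response element at 95 bases and a TATA box at 30 bases. Among 32851 promoter windows of the same length, 14.0% held the nuclear receptor half-site, 17.8% the CREB half-site, 1.55% the full element, 32.7% the GC box and 12.4% the TATA box. The full element in Dio2 is thus the least common of the matches shown, and it sits in a gene with hardly a read. A match is a run of letters and no evidence that a factor binds there.

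Ucp1 (ENSMUSG00000031710, chromosome 8, 84016981 to 84025081, plus strand; table coordinates here and below are GRCm39) went from a trace to a clearly measured transcript. It was counted in 44, 56 and 35 reads in steady-state replicates 1, 2 and 3, and in 3440, 1836, 2518 and 2903 reads in day 12 replicates 1 to 4. After TMM normalisation these were 1.30, 1.57 and 1.12 CPM (counts scaled to library size) against 91.2, 46.1, 66.2 and 84.3 CPM. The lowest day 12 library, replicate 2, lay far above the highest library of steady state. The mean level went from 1.33 ± 0.226 (SD, n = 3) to 71.9 ± 20.2 CPM (SD, n = 4), a log2 fold change of 5.75 (SE 0.29) or 53.7-fold. By fold it stood at position 61 from the top of the 15981 tested genes. Per kilobase of exon its level was 0.813 ± 0.138 CPM per kb in steady state, above 20.2% of tested genes, and 44.0 ± 12.3 CPM per kb at day 12, above 90.3% of them. Leaving out single libraries gave log2 fold changes from 5.63 to 5.94. None of its 31-base words occurs in another annotated transcript. In bulk RNA more expressing cells and more transcript per cell cannot be told apart, for this gene or for any other below.

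**Figure D1:**
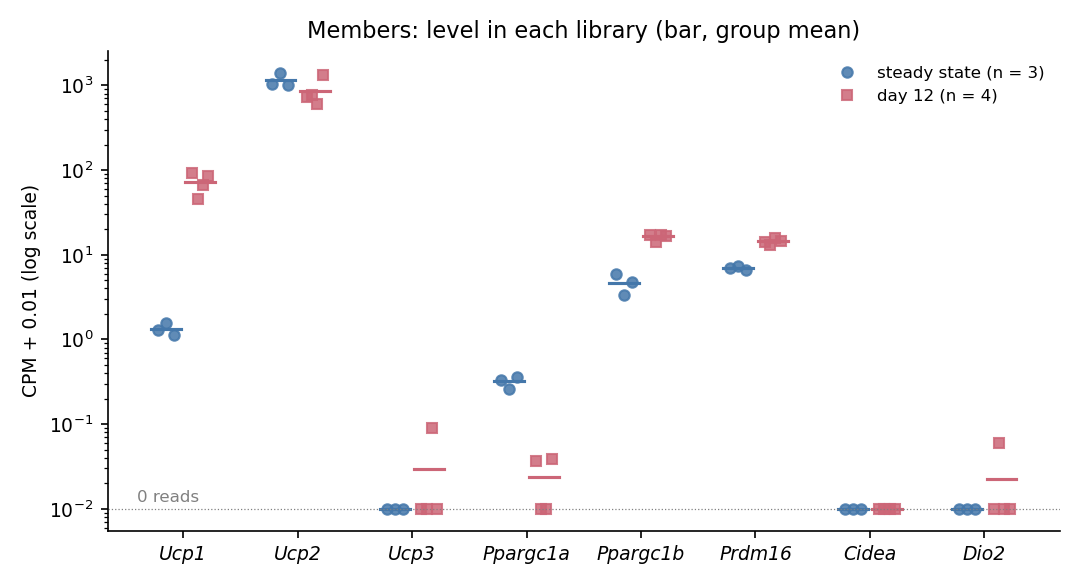
Each point is 1 library's CPM for a member on a log axis (circles, steady state, n = 3; squares, day 12, n = 4; bars, group means; points on the dotted line had 0 reads). Ucp1 moves from 1.33 to 71.9 CPM on average while Ucp2 overlaps between the groups, and Cidea has no read in any library.

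Ucp2 (ENSMUSG00000033685, chromosome 7, 100142544 to 100151227, plus strand), known for its high expression in macrophages, was the main uncoupling protein transcript in both groups. Its levels were 1051, 1416 and 1009 CPM in steady state and 720.5, 769, 608 and 1320 CPM at day 12. Day 12 replicates 1 to 3 were under all of steady state, while replicate 4 lay inside the steady-state range. The means were 1159 ± 224 and 854 ± 318 CPM (log2 fold change -0.44, SE 0.25), and Ucp2 did not pass the threshold. It did pass without day 12 replicate 4, at a log2 fold change of -0.73, so a single library decides on which side of the threshold it falls. Its end overlaps Dnajb13 on the other strand, and Dnajb13 had 612 reads in all. Other transcripts share 4.18% of the 31-base words of Ucp2.

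Ucp3 (ENSMUSG00000032942, chromosome 7, 100122197 to 100135639, plus strand) lies 6.91 kb before Ucp2 on the same strand. It had 0 reads in steady state, which allows up to 0.0295 CPM over the group, and 3 reads at day 12, all in replicate 3. The muscle uncoupling protein was thus not detectable beyond the floor of 3 reads in either group.

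Compared per kilobase of exon, Ucp1 made up 0.302, 0.269 and 0.269% of the summed Ucp1, Ucp2 and Ucp3 level in steady state. At day 12 its share was 23.6, 12.8, 21.0 and 13.5% in replicates 1 to 4. The 2 libraries with the lower share, replicates 2 and 4, differed in which gene stood apart: Ucp1 was lowest in replicate 2, and Ucp2 was highest in replicate 4. The mean share was 0.280 ± 0.0187% (SD, n = 3) and 17.7 ± 5.40% (SD, n = 4). By reads alone, with no length applied, it was 0.115 ± 0.00768% and 8.18 ± 2.77%. The lengths used were 1.64 kb for Ucp1 and 3.99 kb for Ucp2, all annotated exons joined. The size of the share, and of the ratio that follows, depends on them. Ucp2 exceeded Ucp1 by 357 ± 23.0 times per kilobase in steady state and by 5.07 ± 1.82 times at day 12. The summed level of the family was 291 ± 56.2 and 258 ± 84.8 CPM per kb, and these ranges overlap. Ucp2 therefore remained above Ucp1 in every one of the 7 libraries.

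**Figure D2:**
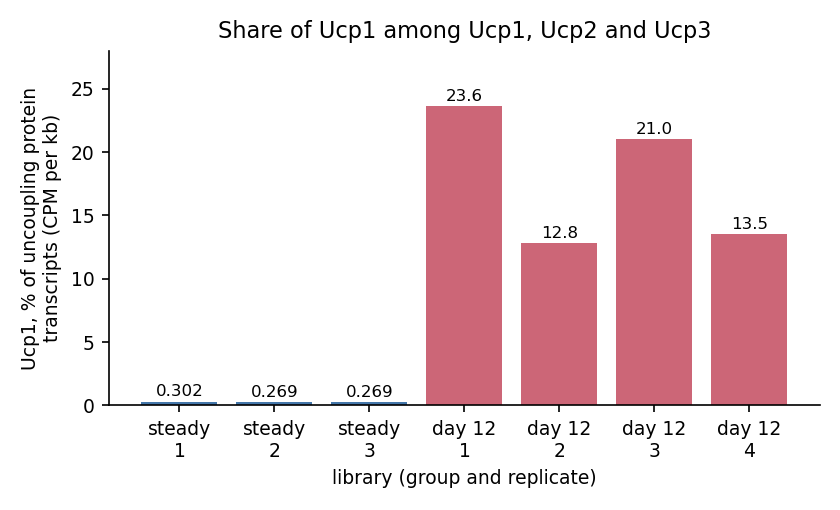
Bars give Ucp1 as a percentage of the summed Ucp1, Ucp2 and Ucp3 level (CPM per kb of exon) in each library, 3 of steady state and 4 of day 12. The share is 0.269 to 0.302% in steady state and 12.8 to 23.6% at day 12. By reads alone, with no length applied, the mean share is 0.115% and 8.18%.

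The PGC-1 coactivator genes differed in opposite directions. Ppargc1a (ENSMUSG00000029167, chromosome 5, 51611592 to 51725068, minus strand), the cold-induced coactivator that drives mitochondrial biogenesis in brown fat, had 11, 9 and 11 reads in steady state and 1, 0, 0 and 1 at day 12. Those are 0.326, 0.252 and 0.351 CPM against 0.0265, 0, 0 and 0.0290 CPM. All steady-state libraries were above the floor of 3 reads and all day 12 libraries under it. The ratio of steady state to day 12 was 23.1, with a 95% counting interval of 5.87 to 199, which covers counting error only. The gene was too low to enter the filtered table. In a fit with no filter on low counts, where 11.6% of 27238 genes passed, its log2 fold change was -4.22 (SE 0.93). Ppargc1b (ENSMUSG00000033871, chromosome 18, 61431207 to 61533502, minus strand), a coactivator of mitochondrial and lipid genes that is known from alternatively activated macrophages, was higher at day 12. Its levels were 5.90, 3.33 and 4.82 CPM in steady state and 17.3, 14.3, 17.3 and 16.8 CPM at day 12, with no overlap. Groups without overlap were seen in 5591 of the 15981 tested genes, so that alone does not set Ppargc1b apart. The means were 4.69 ± 1.29 and 16.4 ± 1.44 CPM, a log2 fold change of 1.81 (SE 0.20) or 3.51-fold.

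Prdm16 (ENSMUSG00000039410, chromosome 4, 154400582 to 154721330, minus strand), a zinc finger regulator of brown fat identity that also acts in blood stem cells, was higher at day 12 as well. Its levels were 6.94, 7.45 and 6.64 CPM in steady state and 14.1, 13.2, 15.9 and 14.5 CPM at day 12. The groups did not overlap, as in 5591 of the 15981 tested genes, and the spread inside each was small. The means were 7.01 ± 0.408 and 14.4 ± 1.13 CPM, a log2 fold change of 1.04 (SE 0.13) or 2.06-fold. Words of 31 bases shared with other transcripts, Mecom among them, made up 0.941% of its sequence.

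Cidea (ENSMUSG00000024526, chromosome 18, 67476674 to 67500855, plus strand) had 0 reads in all 7 libraries, which allows up to 0.0120 CPM over the 250689770 reads. Dio2 (ENSMUSG00000007682, chromosome 12, 90691326 to 90705812, minus strand), the enzyme that converts thyroxine to the active hormone, had 0 reads in steady state and 2 reads at day 12, both in replicate 2 (0.0503 CPM). Neither classic companion of Ucp1 in brown fat was detectable beyond the floor, at a depth of 32077050 to 38586694 counts per library.

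Other genes of brown and beige fat, listed without the members, were called in part. Of 34 listed genes 16 were abundant enough to be tested, and 5 rose and 1 fell, or 37.5% against 20.3% of all tested genes, with a median log2 fold change of 0.11 against 0.00. Acot11, an acyl-CoA thioesterase induced by cold in brown fat, rose from 4.17 ± 0.242 to 23.9 ± 8.30 CPM, or 2.52 on the log2 scale (SE 0.28, edgeR adjusted p = 0.000460). Nrg4, which encodes a growth factor that brown adipocytes secrete, rose from 1.10 ± 0.238 to 4.73 ± 0.937 CPM (2.09 on the log2 scale, adjusted p = 0.000689). Gk (glycerol kinase) rose from 11.7 ± 3.51 to 33.7 ± 6.60 CPM (adjusted p = 0.00184). In all 3 of these genes every day 12 library was above every steady-state library, where 5591 of 15981 tested genes (35%) had groups that did not overlap. Aifm2, an oxidoreductase of lipid droplets and membranes, rose from 48.7 ± 2.13 to 116 ± 17.4 CPM (adjusted p = 0.000347). Plin5, a coat protein that ties lipid droplets to mitochondria, rose from 0.426 ± 0.140 to 1.06 ± 0.292 CPM (adjusted p = 0.0356). That call was lost without any single steady-state library or day 12 replicate 1 or 3, and with the replicate block (adjusted p from 0.0195 to 0.132 over the alternatives). Zfp516, a zinc finger protein that binds the Ucp1 promoter in brown fat, fell from 23.1 ± 0.707 to 14.4 ± 2.17 CPM (adjusted p = 0.00621).

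Many other genes of this list were low or at 0, while some that did not pass were well read. Cox8b, Ebf2, Zic1, Tbx1, Adrb3, Slc27a2, Fgf21 and Kng2 had no read in any of the 7 libraries, and 10 further listed genes had too few reads to be tested. Cox7a1, a respiratory chain subunit typical of brown fat and muscle, was at 0.328 ± 0.153 and 0.555 ± 0.124 CPM (adjusted p = 0.229). The nuclear receptor genes Pparg (0.676 ± 0.295 and 0.286 ± 0.0865 CPM, adjusted p = 0.0839) and Ppara (0.550 ± 0.105 and 0.292 ± 0.0934 CPM, adjusted p = 0.127), whose products act on Ucp1 in fat, did not pass. Irf4, a transcription factor that acts with PGC-1alpha in brown fat, was at 68.3 ± 9.80 and 112 ± 34.3 CPM and did not pass either (adjusted p = 0.0550). Letmd1 (44.2 ± 1.97 and 36.5 ± 1.93 CPM, edgeR adjusted p = 0.0667) and Epsti1 (42.1 ± 3.81 and 37.3 ± 7.84 CPM, adjusted p = 0.488) were well read and did not pass.

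**Figure D3:**
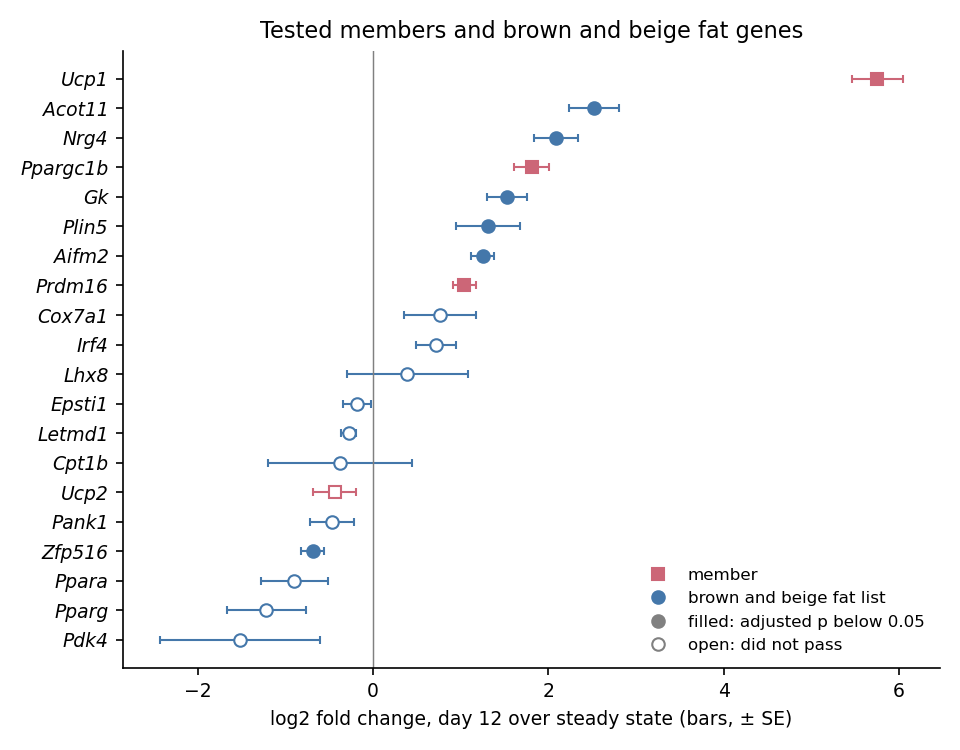
Points give the log2 fold change of day 12 over steady state (bars, ± SE) for the 4 tested members (squares) and the 16 tested genes of the brown and beige fat list (circles), filled where the adjusted p was under 0.05. Ucp1 stands at 5.75, and the next gene, Acot11, at 2.52.

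Among relatives of the uncoupling proteins, 9 of 10 listed carriers were tested, and 2 rose and 1 fell (33.3% called, median log2 fold change -0.08). Slc25a5, an ADP/ATP carrier that also leaks protons, rose from 157 ± 4.37 to 258 ± 1.55 CPM, or 0.72 on the log2 scale (SE 0.09, edgeR adjusted p = 0.000843), with day 12 libraries from 256 to 259.7 CPM. Slc25a27, also named UCP4, fell from 1.30 ± 0.343 to 0.246 ± 0.146 CPM (adjusted p = 0.00465). Slc25a35, a carrier of unsettled function, rose from 1.70 ± 0.398 to 3.52 ± 0.417 CPM (adjusted p = 0.0127), a call lost without steady-state replicate 1 (adjusted p from 0.000417 to 0.0569 over the alternatives). Slc25a14 (UCP5), at 3.32 ± 0.310 and 3.14 ± 0.462 CPM, did not pass (adjusted p = 0.812). The relatives of Ucp1 that passed thus went in both directions.

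Creatine and calcium cycling, which give heat in fat without Ucp1, were covered by 15 genes. Of 9 tested, 2 rose and 3 fell (55.6% called, median log2 fold change -0.51). Gatm, the first enzyme of creatine synthesis, rose from 2.97 ± 1.30 to 48.1 ± 16.6 CPM, or 4.02 on the log2 scale (adjusted p = 0.000329 by edgeR). Ryr1, a calcium release channel, rose from 2.31 ± 0.138 to 11.9 ± 2.37 CPM (adjusted p = 0.000128). Day 12 libraries lay above steady state in both genes without exception. The groups did not overlap in 5591 of the 15981 tested genes, so that alone does not set Gatm and Ryr1 apart. The calcium pump gene Atp2a3 fell by 0.76 on the log2 scale, from 266 to 384 CPM in steady state and 181 to 216 CPM at day 12 (adjusted p = 0.00644), and Pm20d1, which makes N-acyl amino acids that uncouple mitochondria, fell from 1.72 ± 0.412 to 0.456 ± 0.120 CPM (adjusted p = 0.00295).

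Partners and targets of the PGC-1 coactivators were mostly detected, with 33 of 35 tested, of which 6 rose and 5 fell (33.3% called, median log2 fold change -0.07). Without steady-state replicates 1, 2 and 3 the 11 calls came to 6, 6 and 5, and without day 12 replicate 4 there were 6 higher and 9 lower, so the calls were not always evenly balanced. Prkaa2, a catalytic subunit of the energy sensor AMPK, rose from 1.13 ± 0.0849 to 15.5 ± 8.66 CPM, or 3.77 on the log2 scale (edgeR adjusted p = 0.00109). Sod2, the mitochondrial superoxide dismutase, rose from 76.8 ± 5.39 to 132 ± 15.5 CPM (adjusted p = 0.00215). Mef2c, a transcription factor that PGC-1alpha coactivates in muscle, fell from 58.2 ± 4.64 to 20.3 ± 4.50 CPM (adjusted p = 0.000438). The coactivator gene Ncoa1 fell from 112 ± 5.12 to 71.3 ± 3.72 CPM (adjusted p = 0.00150), and Nrf1, which controls nuclear genes of the respiratory chain, from 29.8 ± 1.09 to 19.5 ± 0.363 CPM (adjusted p = 0.00205). Esrra, the nuclear receptor through which PGC-1 proteins act on mitochondrial genes, rose from 34.1 ± 1.79 to 57.7 ± 14.0 CPM (adjusted p = 0.0151), a call lost without any one of the 3 steady-state libraries (0.000826 to 0.0742 over the alternatives). Pprc1, the third member of the coactivator family, was at 38.0 ± 3.53 and 49.8 ± 6.56 CPM (adjusted p = 0.0607).

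PRDM16 works with other regulators, and of 14 tested partner genes 6 fell and 0 rose (42.9% called, median log2 fold change -0.39), while Prdm16 itself was higher. The count was 3 of 14 without any one steady-state library, and none rose in any alternative run. Hlx, a homeobox gene of the beige fat programme, fell from 26.9 ± 2.70 to 10.8 ± 1.95 CPM, or -1.32 on the log2 scale (edgeR adjusted p = 0.000566). The corepressor gene Ctbp2 fell from 64.6 ± 2.59 to 42.5 ± 3.15 CPM (adjusted p = 0.00270). Zfp516, given above, is also on this list. Cebpa, a regulator of both fat and myeloid cells, fell by 1.04 on the log2 scale (adjusted p = 0.0314), from 252 to 291 CPM in steady state and 92.3 to 222 CPM at day 12, with replicate 4 the highest. Its call was lost without any one library other than that one and with no filter (0.000283 to 0.0965 over the alternatives).

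Among 31 tested genes of beta-adrenergic and cyclic AMP signalling 3 rose and 5 fell (25.8% called against 20.3% of all tested genes, median log2 fold change -0.19). The 8 calls came to 5 without steady-state replicate 3 and to 14 without day 12 replicate 4. Adrb3, the receptor of brown fat, had no read. The adenylyl cyclase genes differed in direction, since Adcy3 rose from 1.43 ± 0.466 to 10.2 ± 1.57 CPM (edgeR adjusted p = 0.000195) and Adcy6 fell from 20.6 ± 1.58 to 7.05 ± 2.55 CPM (adjusted p = 0.00287). Prkar2b, a regulatory subunit of protein kinase A, fell from 9.21 ± 2.45 to 3.05 ± 0.677 CPM (adjusted p = 0.00188). Of 16 tested thyroid hormone genes 0 rose and 3 fell (median log2 fold change -0.15). That is 18.8% called, near the 20.3% of all tested genes. In some alternatives 1 gene rose: RLE or upper-quartile factors, DESeq2, limma-voom, no filter, or without steady-state replicate 2. With the replicate block 7 fell. Thra, the alpha receptor, fell from 29.4 ± 1.62 to 15.8 ± 3.01 CPM (edgeR adjusted p = 0.00371). Thrb, at 8.03 ± 1.99 and 8.48 ± 1.34 CPM, did not pass (adjusted p = 0.821).

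Relatives of Cidea and lipid droplet genes had 3 of 18 tested genes higher and 0 lower (16.7% called against 20.3% of all tested genes, median log2 fold change 0.35). The count was 1 with the filter of 1 CPM in 3 libraries, and 5 without day 12 replicate 2 or 4. Plin1, the main droplet coat of adipocytes, rose from 2.25 ± 1.10 to 48.9 ± 29.0 CPM, or 4.45 on the log2 scale (SE 0.58, edgeR adjusted p = 0.00230), with 92.2 CPM in day 12 replicate 4 and 31.1 to 39.0 CPM in the other 3. Cideb, the liver relative of Cidea, rose from 0.0689 ± 0.0447 to 0.573 ± 0.180 CPM (adjusted p = 0.00495). Cidec had 1 read in all. Of the CIDE family, then, Cideb was measured above the floor at day 12, at a low level.

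Few genes of fatty acid oxidation passed, and the genes of both fatty acid oxidation and mitochondrial mass that passed were higher by small amounts. Fatty acid oxidation had 2 of 20 genes higher and 0 lower (median log2 fold change 0.20), a smaller share than that over all genes. Leaving out 1 library gave 0 to 5 genes, with 0 without steady-state replicate 1 or 3 or day 12 replicate 3 (3, 2 and 4 at an unadjusted p under 0.05), 1 without steady-state replicate 2 or day 12 replicate 1 and 5 without day 12 replicate 4, and the fit with no filter called 1. Its called genes were Acadl (60.6 ± 6.97 to 81.6 ± 8.24 CPM, edgeR adjusted p = 0.0337) and Echs1 (54.4 ± 4.10 to 68.5 ± 2.78 CPM, adjusted p = 0.0365). Both calls were lost in some alternatives, that of Acadl without steady-state replicate 1 or 3 or day 12 replicate 3 and with the replicate block (0.0159 to 0.158) and that of Echs1 without any one library but day 12 replicate 4 and with no filter (0.0132 to 0.184). Mitochondrial mass had 5 of 19 genes higher and 0 lower (26.3% called against 20.3% of all tested genes, median 0.14). Without any one of the 3 steady-state libraries edgeR called 0 of the 19 (5 at an unadjusted p under 0.05), without day 12 replicates 1 or 2 it called 3, and without replicate 4 it called 8. The matrix chaperone Hspa9 rose from 129 ± 8.12 to 185 ± 24.8 CPM (adjusted p = 0.0195) and citrate synthase (Cs) from 124 ± 1.46 to 163 ± 6.58 CPM (adjusted p = 0.0132). Both of these calls were lost without any one steady-state library (0.000960 to 0.0986 for Hspa9, 0.000355 to 0.0741 for Cs). The log2 fold changes were 0.43 for Acadl, 0.33 for Echs1, 0.52 for Hspa9 and 0.40 for Cs, beside 5.75 for Ucp1.

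**Figure D4:**
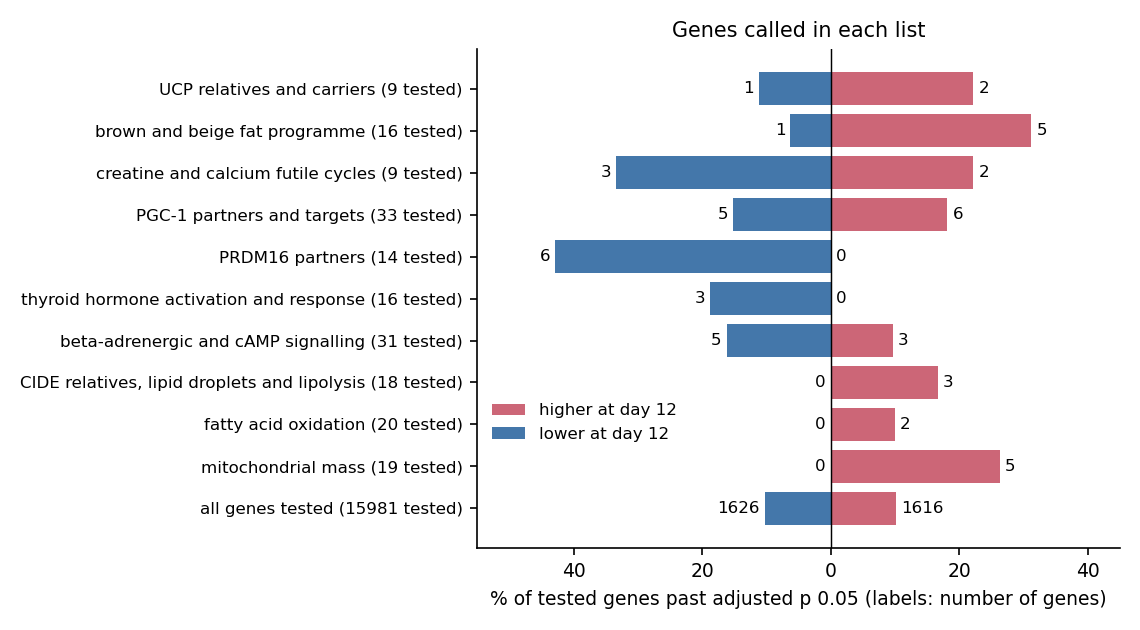
Bars give the share of tested genes in each list that passed an adjusted p of 0.05 as higher (right) or lower (left) at day 12, with the number of genes beside each bar and all 15981 tested genes at the bottom. PRDM16 partners and thyroid hormone genes have calls on the lower side, and fatty acid oxidation and mitochondrial mass on the higher side. Both directions together come to 20.3% of all tested genes and 18.8% of the thyroid hormone genes.

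Because Ucp1 is so closely tied to fat, markers of other cell types were read beside it. All 10 macrophage markers were read, and 3 were called higher at day 12, 3 lower and 4 not called (20.3% of all tested genes were called). Adgre1 was at 2573 ± 167 and 4734 ± 563 CPM and Itgam at 1328 ± 124 and 2133 ± 361 CPM. Timd4 was at 963 ± 80.5 and 495 ± 114 CPM and Csf1r at 2025 ± 186 and 1505 ± 95.7 CPM. Fcgr1, not called, was at 47.7 to 61.1 CPM in steady state and 2.70, 37.5, 0.947 and 40.2 CPM in day 12 replicates 1 to 4. The sum of the 10 macrophage markers was lower at day 12 (49225 to 51118 CPM in steady state, 13137 to 20055 CPM at day 12). The fall of the sum was in Lyz2 (42101 ± 818 and 4624 ± 3767 CPM). The other 9 markers, which went in both directions, summed to 8067 to 8533 CPM in steady state and 9832 to 11067 CPM at day 12, hence higher together. The sum of 12 adipocyte markers was 205 to 254 CPM in steady state and 88.2 to 134 CPM at day 12, but the members of that list went in opposite directions. Fabp4, which macrophages also express, fell from 234 ± 26.9 to 69.8 ± 24.6 CPM, while Plin1 rose as given above and at 92.2 CPM was the larger part of the sum in day 12 replicate 4 (Fabp4 42.1 CPM). Without Fabp4 the sum was 1.26 to 3.38 CPM in steady state and 31.1 to 92.2 CPM at day 12. Without both it was 0.0297 to 0.112 and 0 to 0.0580 CPM. Adipoq had 5 reads in all, and Lep, Aqp7, Slc2a4 and Car3 had none. The sum of 10 brown adipocyte markers was 0.798 to 1.13 CPM in steady state and 1.16 to 1.53 CPM at day 12 (means differing by 0.318 CPM), and Cox8b, Adrb3, Ebf2 and Zic1 were at 0. Of these 10 markers 3 were tested, and none was called. The 3 full sums did not overlap between the groups (exact two-sided permutation test over 35 splits, p = 0.0286, the smallest possible, and 0.0449 after adjustment over 11 lists).

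Markers of further cell types also moved with the groups. B cell markers summed to 6.64 to 10.2 CPM in steady state and 20.1 to 44.3 CPM at day 12, intestinal epithelium to 0.112 to 0.356 and 2.04 to 3.11 CPM, fibroblasts to 0.336 to 0.534 and 1.27 to 2.18 CPM, and mesothelial cells to 0 to 0.0280 and 0.158 to 0.377 CPM (p = 0.0286 each by the same exact permutation test, 0.0449 adjusted). Most of the epithelial sum at day 12 was Cdh1, at 0.129 ± 0.0182 and 2.00 ± 0.658 CPM. Krt18 was at 0.0395 ± 0.0685 and 0.315 ± 0.178 CPM and Epcam at 0.0411 ± 0.0356 and 0.0670 ± 0.0171 CPM. Cdx2, Cdx1, Krt20 and Lgr5 (epithelium), Msln, Upk1b and Muc16 (mesothelium) and Lum (fibroblast) had no read. Skeletal muscle (1.32 to 2.02 and 2.16 to 4.02 CPM) and neutrophil markers (1.01 to 1.41 and 1.67 to 3.37 CPM) gave an exact p of 0.0571 each, adjusted 0.0698. T cell markers (0.504 to 0.860 and 0.795 to 3.54 CPM) and eosinophil markers (1.75 to 1.88 and 1.63 to 2.34 CPM) overlapped (exact p = 0.200 and 1.00). Day 12 replicate 2, the day 12 library in which Ucp1 was lowest, had the highest B cell sum. Among day 12 libraries it also had the highest macrophage, brown adipocyte, mesothelial and eosinophil sums. Its high macrophage sum lay in Lyz2, at 10223 CPM against 2071 to 3286 CPM in the other day 12 libraries. Without Lyz2 its macrophage sum was the lowest of day 12, at 9832 CPM against 10486 to 11067 CPM. The part of these cell types in the levels of Ucp1, Ppargc1b and Prdm16 was not tested.

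Genes beside Ucp1 did not share its difference in size. Of its 10 nearest protein-coding genes, 5 on each side, 7 were tested, and 1 rose and 1 fell. Of all 15981 tested genes 20.3% were called, so nothing is read from that count. Tbc1d9, which ends 17.4 kb before Ucp1 and codes for a protein of the Rab regulator family, rose from 4.46 ± 0.767 to 13.5 ± 4.28 CPM, or 1.60 on the log2 scale (SE 0.27, edgeR adjusted p = 0.00322). Elmod2, 14.2 kb beyond Ucp1, was at 33.0 ± 2.45 and 42.6 ± 10.6 CPM (adjusted p = 0.218). Rnf150, a RING finger gene 199 kb before Ucp1, fell from 16.2 ± 2.81 to 0.574 ± 0.0835 CPM, or -4.81 on the log2 scale (SE 0.20, adjusted p = 5.82e-06). Zfp330 (0.06), Il15 (0.20), Scoc (-0.13) and Inpp4b (-0.84 on the log2 scale) did not pass. Both a strong fall and a strong rise were thus seen within the same stretch of chromosome 8.

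**Figure D5:**
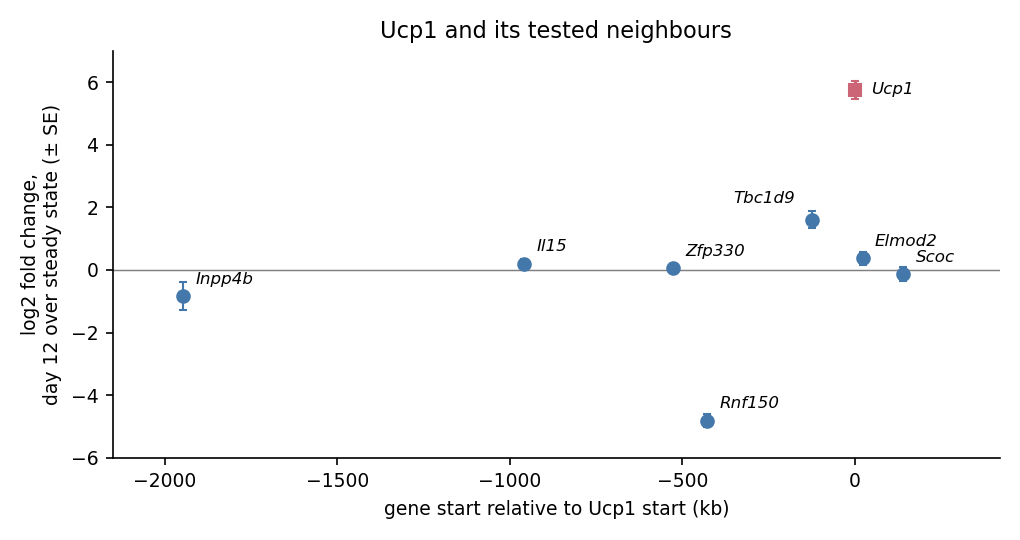
The x axis gives the distance of each tested neighbour's start from the start of Ucp1 in kb, and the y axis the log2 fold change of day 12 over steady state (bars, ± SE). Ucp1 is at 5.75, Tbc1d9 at 1.60 and Rnf150 at -4.81, and the other 5 genes lie between -0.84 and 0.37.

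Around the Ucp2 and Ucp3 pair 8 of 10 neighbours were tested, and 1 rose and 2 fell, where 20.3% of all tested genes were called. Pgm2l1, a sugar phosphate mutase gene, fell from 44.6 ± 3.70 to 9.90 ± 2.25 CPM, or -2.17 on the log2 scale (edgeR adjusted p = 0.000128), and Kcne3, a potassium channel subunit, from 0.754 ± 0.119 to 0.0746 ± 0.0624 CPM (adjusted p = 0.00514). Dnajb13, which overlaps Ucp2 by 305 bases on the other strand, rose from 0.854 ± 0.0121 to 3.50 ± 0.981 CPM (adjusted p = 0.00132). The kit keeps strand, but no source used here gives the strand setting of the counting, so reads in the overlap cannot be assigned with certainty to either gene. C2cd3, Coa4, Mrpl48, Ppme1 and Rab6a did not pass.

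The genes whose profile over the 7 libraries was most like that of Ucp1 were Adamts2 (Pearson r of log2 CPM 0.998), Lpar1 (0.997), Osgep (0.997), Insr (0.995), Pglyrp1 (0.995), Igf2r (0.995), Trim43a (0.994) and Trim72 (0.994), out of 9631 genes with at least 5 CPM in a group. None is on the brown and beige fat list, but the cutoff of 5 CPM left out most genes of that list, Nrg4 among them, so nothing is read from this. With a prior count (added to the counts before the log) of 0.5 rather than 2, Slc25a5 took the place of Trim72 (r 0.994). Ucp1 separates the groups, so any gene that does so evenly ranks high, and Osgep did with a log2 fold change of 0.31 alone. Insr, the insulin receptor, went from 129 ± 5.26 to 416 ± 46.1 CPM, and Pglyrp1, a peptidoglycan recognition protein, from 6.43 ± 0.367 to 115 ± 37.5 CPM. Ucp2 was most like Rpl13 (0.975), Wtip (0.973), Ehd1 (0.973), Mboat7 (0.969) and Mcrs1 (0.968), of which all 5 lay highest at day 12 in replicate 4, as Ucp2 did. None of these 5 genes passed edgeR's threshold.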

How the data were processed

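Poly-A RNA of 7 libraries was measured, 3 of steady state and 4 of day 12, grouped by sample title. The authors deposited 1 table of raw read counts for each gene and library, not normalised. Per the labels' protocols, 30 ng of RNA went into directional libraries read as 100-nt single reads. That protocol states 3 biological replicates in each condition, whereas 4 libraries are titled day 12. The build was GRCm39 and the tools were STAR 2.7.11a, Subread 2.0.6 with featureCounts, SAMtools 1.10, DESeq2 1.40.2 and FastQC, per the submitters' processing notes. Annotation release, strand setting and handling of multi-mapping reads: not given in the sources used here.

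Genes were tested with edgeR 4.0.16 (R 4.3.3; quasi-likelihood, robust, TMM; minimum count 10, minimum total 15) and Benjamini-Hochberg adjustment at 0.05 over 15981 genes. The SE is the log2 fold change divided by the root of F. CPM use TMM factors. CPM per kb use exon lengths of GENCODE M21 basic (GRCm38). Libraries held 32077050 to 38586694 counts, and 3 counts, the floor, stood for 0.0777 to 0.0935 CPM per library. Floors and intervals cover counting error only, since PCR copies are not independent molecules. Promoters and their windows are from RefSeq's GRCm38.p6 table, which matched by symbol. No genome of GRCm39 was used here. Alternatives were RLE and upper-quartile factors, DESeq2 1.42.0, limma-voom 3.58.1, no filter, at least 1 CPM in 3 libraries, a replicate block and each library left out. The test was tried on simulated counts. It recovered 9 of 60 genes changed 1.5-fold, 33 of 63 changed 2-fold and 70 of 75 changed 4-fold. Of its 118 calls 6 were false. Most changes of 1.5-fold were thus missed. The value of Ppargc1a with no filter and the alternatives for neighbouring genes and the marker sums without Lyz2, Fabp4 or Plin1 were added after seeing the data.

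The members, the 10 pathway lists and the 11 marker lists were chosen with earlier results of these data known. Of 301 list symbols 1 did not match the table. Named genes are all members, the 4 tested genes of lowest p in each pathway list, called genes of at least 100 CPM, the 3 most abundant genes of each marker list, all tested neighbours of the 2 loci (5 protein-coding genes on each side), and the genes most like Ucp1 (8) and Ucp2 (5). Slc25a14, Cox7a1, Pparg, Ppara, Irf4, Letmd1, Epsti1, Fcgr1, Esrra, Pprc1, Thrb, Adrb3, Cidec, Adipoq and the genes named as having no read fall outside it and were chosen after their values were seen. A gene that this rule takes is not reported here.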

Additional observations from a re-analysis of the deposited data

Results flagged for a closer look

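In 12 of 68 groups of 4 day 12 libraries examined, 1 library lay far from the other 3. Chance flags about 1 in 20 groups. Day 12 replicate 2 stood apart in 5 marker sums: macrophage at 20055 CPM (others 13137 to 13856), brown adipocyte at 1.53 CPM (1.16 to 1.21), mesothelial cell at 0.377 CPM (0.158 to 0.185), B cell at 44.3 CPM (20.1 to 22.7) and eosinophil at 2.34 CPM (1.63 to 1.68). Without Lyz2, however, the macrophage sum of replicate 2 was the lowest of day 12, at 9832 CPM (others 10486 to 11067). In the same library Echs1, an enzyme of fatty acid oxidation, was at 72.7 CPM (66.8 to 67.4).

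Day 12 replicate 4, the library whose Ucp2 level fell in the steady-state range, stood apart in 4 genes. Slc25a27 was at 0.464 CPM (others 0.151 to 0.185), Gk at 23.8 CPM (36.7 to 37.4), Zfp516 at 17.6 CPM (12.9 to 13.6) and Plin1 at 92.2 CPM (31.1 to 39.0). In Slc25a27, Gk and Zfp516 it was the day 12 library nearest to steady state, and in Plin1 the farthest. Ctbp2 was lowest in day 12 replicate 1, at 37.7 CPM (43.9 to 44.2), and Pde4d, a phosphodiesterase gene, highest in replicate 3, at 7.31 CPM (4.62 to 4.98). No member was among these.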

How the results depend on the processing

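The number of genes called was 3242 and ran from 2964 to 3981 over other size factors, filters and tools. The log2 fold change of Ucp1 ran from 5.61 to 5.94 over all alternatives, that of Ppargc1b from 1.61 to 2.03 and that of Prdm16 from 0.99 to 1.11, and all 3 passed in each. Members called were 3 or 4 throughout, the added one being Ppargc1a (DESeq2, no filter, without steady-state replicate 2) or Ucp2 (without day 12 replicate 4, replicate block). Brown and beige fat genes called ran from 5 to 8 and neighbours from 4 to 6. No fold change of a member turned. The adipocyte difference of -117 CPM turned to 46.6 CPM without Fabp4 and came to -0.0408 CPM without Fabp4 and Plin1 (exact p = 0.229), and the macrophage sum, lower at day 12, was higher by 2216 CPM without Lyz2; these 3 sums were added after seeing the data. The balance of calls turned as well, from 1616 higher and 1626 lower to 1836 and 1442 with upper-quartile factors, and over the pathway lists from 25 and 22 to 34 and 39 without day 12 replicate 4.

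Leaving out 1 library gave 1761 to 4599 genes called, with 1868, 1804 and 1761 without steady-state replicates 1, 2 and 3. Over the pathway lists, 47 distinct genes were called and 27 to 73 with 1 library left out (29 without steady-state replicate 1, 27 without replicate 3, 73 without day 12 replicate 4). The adipocyte marker difference of -117 CPM ran from -133 to -107 and the brown adipocyte difference of 0.318 CPM from 0.229 to 0.406. With 6 libraries the exact test cannot go under 0.0667 or 0.100, so neither sum could pass. The brown adipocyte sum was also above that limit in 2 runs. Its exact p was 0.133 without steady-state replicate 2 and 0.200 without replicate 3. Of 52 called list and neighbour genes, 31 kept the call in every alternative run.

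The labels do not say whether replicate numbers pair the libraries. The correlations of deviations between same-numbered libraries were -0.141, 0.008 and 0.203, and those between differently numbered libraries ran from -0.201 to 0.191. These values do not settle the question. With the replicate block, 4278 genes were called, 67 of them on the pathway lists (29 higher, 38 lower), and Ucp2 passed at a log2 fold change of -0.72. Day 12 replicate 4 has no steady-state library of its number, so in the block fit it does not inform the difference. The block run is thus close to leaving that library out, where Ucp2 stood at -0.73.

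Depth put Ucp3, Cidea, Dio2 and Ppargc1a at day 12 at or under the floor, so lower levels of these could not be measured.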
